A study of Mus musculus with 6 samples.

Results

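The 10 transcription factors Sim1, Otp, Nr5a1, Nkx2-1, Tbx3, Isl1, Foxb1, Lmx1a, Pax6 and Bsx were followed through the neurons of mouse hypothalamus. They were taken by name, whatever their level, and are 10 of the 27514 genes found in all 3 count matrices. Gene expression was read in nuclei positive for NeuN, a protein of neuronal nuclei, after capture with a 10x Genomics 3′ kit. The 3 pools came from chow-fed mice, from mice with diet-induced obesity (DIO) on a high-fat diet, and from chow-fed ob/ob mice (OB), which make no working leptin. Hashtags, which are barcoded antibodies, told apart the nuclei of rapamycin-treated and vehicle-treated mice within a pool. Rapamycin inhibits the kinase complex mTORC1. This gave 6 groups: chow, DIO and OB mice, each with rapamycin or vehicle. Both OB groups carry the ob/ob mutation, and no other allele is named for any group. Age, sex, strain, dose, length of treatment and the number of mice behind a hashtag are not given in the sources used here. Every group is therefore 1 sample, and a difference within or between pools has no replicate check.

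These factors build the hypothalamus during development, and many stay on in the mature neurons of the region they helped to form. Sim1 and Otp are needed for the neuroendocrine neurons of the paraventricular and supraoptic nuclei. Nkx2-1 patterns the ventral hypothalamus, Nr5a1 (SF-1) specifies the ventromedial nucleus, and Tbx3, Isl1 and Bsx act in neurons of the arcuate nucleus that control feeding. Foxb1 marks the mammillary body, Lmx1a the supramammillary region and midbrain dopamine neurons, and Pax6 neurons of the prethalamus and zona incerta. Sim1 belongs to the bHLH-PAS family, Nr5a1 is a nuclear receptor, Tbx3 a T-box factor and Foxb1 a forkhead factor, while the others carry a homeodomain.

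The homeodomain factors commonly bind sites with the core TAAT, so the windows upstream of the genes themselves were searched for it on both strands. RefSeq promoter entries (GRCm38.p6) matched 7 of the 10 factors, and for 5 of these an entry starts at the outer end of the gene; Nr5a1, Tbx3 and Foxb1 had none. Shown are the 250 bases before the start of Otp, Isl1 and Bsx, because these 3 factors met in the neurons of the same Agrp-like cluster below. Capitals mark TAAT or its reverse complement ATTA, and no 2 matches overlap in these windows.
Otp, chr13:94875386-94875635, plus strand: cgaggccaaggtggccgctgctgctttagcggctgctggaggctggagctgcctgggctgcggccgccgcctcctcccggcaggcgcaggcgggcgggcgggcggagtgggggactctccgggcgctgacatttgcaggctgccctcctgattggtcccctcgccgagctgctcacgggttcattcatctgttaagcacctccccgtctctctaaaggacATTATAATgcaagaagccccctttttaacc
Isl1, chr13:116309689-116309938, minus strand: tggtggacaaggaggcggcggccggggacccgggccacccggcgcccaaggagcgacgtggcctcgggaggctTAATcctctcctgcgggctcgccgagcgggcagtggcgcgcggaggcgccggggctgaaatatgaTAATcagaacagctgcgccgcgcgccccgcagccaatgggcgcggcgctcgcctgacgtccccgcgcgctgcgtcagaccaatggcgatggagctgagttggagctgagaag
Bsx, chr9:40873877-40874126, plus strand: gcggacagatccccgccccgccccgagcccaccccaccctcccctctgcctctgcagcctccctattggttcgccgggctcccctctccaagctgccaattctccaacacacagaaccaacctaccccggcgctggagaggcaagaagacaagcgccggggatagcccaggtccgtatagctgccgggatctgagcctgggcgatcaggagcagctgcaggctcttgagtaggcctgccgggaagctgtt
The Otp window held 2 matches, starting 30 and 26 bases before the start of the gene, and the Isl1 window held 2, at 177 and 112 bases. The Bsx window held none. Of all 32851 promoter entries cut to the same 250 bases, 54.9% held at least 1 match and 30.8% held 2 or more, so the matches are a description of the letters and not of binding.

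The pools held 10853 to 12284 barcodes with 39238102 to 71127440 UMIs (unique molecular identifiers, which count captured RNA molecules). The OB pool stood apart: its median was 2804.5 UMIs a nucleus against 5826 in chow and 5572 in DIO, and 74.0% of its nuclei were neuronal against 94.3% and 93.7%. Neurons called to rapamycin and to vehicle numbered 4670 and 4959 for chow, 5721 and 4312 for DIO, and 4585 and 1446 for OB. A further 2594 OB neurons had no hashtag call. By the ratio of the 2 tags, another rule, 5313 OB nuclei of all types went to rapamycin and 5332 to vehicle. The called OB neurons had medians of 3171 UMIs with rapamycin and 3679.5 with vehicle. Between 31 and 38 barcodes were shared by any 2 pools and 0 by all 3. Markers of regions next to the hypothalamus were present in the neuronal sums. The thalamic markers made 37.7 to 57.4 CPM (counts scaled to equal library totals) over the 6 groups and the striatal ones 72.8 to 99.8 CPM. In sums over neurons, fewer neurons of a type and less RNA of a factor in each neuron cannot be told apart. All intervals below are exact 95% intervals that cover counting error only.

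At least 1 of the 10 factors was detected in 51.9% of chow, 50.7% of DIO and 37.6% of OB neurons. The lower OB share went with its lower depth: after each nucleus was thinned to 2000 UMIs, the shares were 26.0%, 26.3% and 27.2%. Thinning left out 32, 83 and 1378 neurons as too shallow. Most positive neurons held UMIs of 1 factor alone. In chow, 41.7% of neurons held 1, 9.01% held 2 and 1.10% held 3 of them. The background is given by oligodendrocytes, which should lack the neuronal lineage factors. Among 140 to 239 of these nuclei in a pool, with medians of 1430 to 2122.5 UMIs, 0 to 5 held a UMI of any given factor. Sim1 was highest there, in 3.01% of the 166 chow oligodendrocytes, against 17.0% of chow neurons at a median of 5861 UMIs. Thinned to 2000 UMIs, the chow neuronal share was 8.56%, and the levels were 33.0 CPM in oligodendrocytes and 60.9 CPM in neurons. Tbx3 in DIO was higher in oligodendrocytes, at 7.22 CPM from 2 nuclei against 4.95 CPM in neurons. So was Bsx in OB, at 3.69 CPM from 1 nucleus against 2.32 CPM. The other factors were lower in oligodendrocytes than in neurons in each pool. Pax6 and Foxb1 were also seen in astrocytes. Pax6 was in 8.75% to 10.7% of astrocyte nuclei and Foxb1 in 1.97% to 6.21%, both above their share in the neurons of the same pool.

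Gene positions below are RefSeq's on GRCm38.p6. Sim1 (chr10:50894698-50989156) was spread over few clusters. Of the 37 neuronal clusters, 10 had Sim1 in more than 10% of their nuclei, and these held 96.3% of its neuronal UMIs. Its level was highest in a paraventricular-like cluster led by Avp and Oxt, the genes of vasopressin and oxytocin. There it stood at 564 CPM (541 to 589) and was found in 88.9% of 592 nuclei. A cluster led by Tns1, Mctp2 and Sst followed at 315 CPM (276 to 358). Next came a large cluster of 1996 nuclei led by Gm28526, Ebf1 and Sall3, with Trh also among its leading genes, at 250.2 CPM (241 to 259). A cluster with Aox3 and Ebf3 among its leading genes stood at 247 CPM (233 to 262), an interval that overlaps that of the Gm28526 cluster.

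Otp (chr13:94875636-94885125) overlapped only in part with Sim1. Its highest level, 71.4 CPM (63.6 to 79.9), was in the Agrp-like cluster of 861 nuclei, where Npy led. Agrp and Npy encode peptides that drive feeding. The paraventricular-like cluster followed at 55.9 CPM (48.6 to 64.0). A cluster led by Abi3bp and Pth2r stood at 40.5 CPM (31.1 to 52.0), an interval that overlaps that of the paraventricular-like cluster. The large Gm28526 cluster, high in Sim1, held Otp at 32.1 CPM (29.0 to 35.4). Over 10% of nuclei were positive in 6 clusters, which held 80.7% of its UMIs.

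Tbx3 (chr5:119670534-119684724), Isl1 (chr13:116298270-116309688) and Bsx (chr9:40874127-40878962) shared arcuate and tuberal clusters. Tbx3 was highest in the Pomc-like cluster at 74.4 CPM (61.8 to 88.9). It stood at 50.3 CPM (44.0 to 57.2) in a cluster led by Vgll3, Rxfp1 and Esr1, and at 41.4 CPM (35.5 to 47.9) in the Agrp-like cluster. The last 2 intervals overlap. The tuberomammillary-like cluster followed at 40.5 CPM, and the next cluster was at 6.86 CPM. Isl1 was the broadest of the 10, with over 10% of nuclei positive in 20 of 37 clusters and a median cluster level of 23.6 CPM. Its highest level, 208 CPM (189 to 228), was in a tuberomammillary-like cluster led by Hdc, the enzyme that makes histamine, where 74.3% of 253 nuclei were positive. A cluster led by Col25a1 (186 CPM, 173 to 199) and the Agrp-like cluster (175 CPM, 162 to 188) did not differ from their neighbours in this order beyond counting error. Bsx was sparse. It reached 10.9 CPM (6.94 to 16.4) in the tuberomammillary-like cluster, 4.93 CPM (3.05 to 7.54) in the Agrp-like one and 4.77 CPM (2.99 to 7.22) in the Vgll3 cluster.

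Nr5a1 (chr2:38692656-38714542) was held mostly by a single cluster. A cluster of 2051 nuclei led by Hmcn2, Slit3 and Gpr149 carried 73.7% of its UMIs at 29.4 CPM (26.6 to 32.5). Another, led by Ust and Bcl11b with Sox14 among its genes, held 16.4% at 21.9 CPM (17.5 to 27.0). The third level, in the thalamic-like cluster, rested on 3 UMIs. No cluster met the marker rule for a ventromedial name. Nkx2-1 (chr12:56531935-56536908) was broad, with 11 clusters over 10% positive. It led in a cluster like that of melanin-concentrating hormone neurons, at 72.9 CPM (59.5 to 88.5), and in clusters led by E2f7 and Prkch (63.9 CPM, 50.8 to 79.4) and by Myo5b and Rprm (48.9 CPM, 43.6 to 54.6). Each of these intervals overlaps the next.

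Foxb1 (chr9:69757710-69760940) was highest in clusters led by Col19a1 and Ttn (43.1 CPM, 34.7 to 52.8), by Myo5b and Rprm (35.6 CPM, 31.1 to 40.6) and by 1700011I03Rik and Ctxn3 (21.3 CPM, 15.5 to 28.6). The Myo5b cluster alone held 48.1% of its UMIs. Lmx1a (chr1:167688230-167848741) lay in 4 clusters that held 94.0% of its UMIs. A supramammillary-like cluster stood at 215 CPM (202 to 227), a cluster led by Cdh23 at 199 CPM (187 to 211), a cluster with Gucy2c and Lmx1b among its leading genes at 155 CPM (142 to 168), and a dopaminergic-like cluster of 31 nuclei at 143 CPM (105 to 190). The first pair of levels overlaps and so does the last. Pax6 (chr2:105668896-105698410) had no cluster with over 10% of nuclei positive. It was at 11.9 CPM (9.48 to 14.7) in a cluster led by Meis2 and Piezo2, at 8.05 CPM (6.55 to 9.79) in the Gm28526 cluster and at 5.404 CPM (4.22 to 6.82) in a GABAergic cluster with Gad2 and Dpp4 among its leading genes. In the Gm28526 cluster, 10.9% of the 46 Pax6 nuclei held Sim1, against 65.3% of the other nuclei there. The heat map of the 10 factors over clusters shows these blocks.

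**Figure D1:**
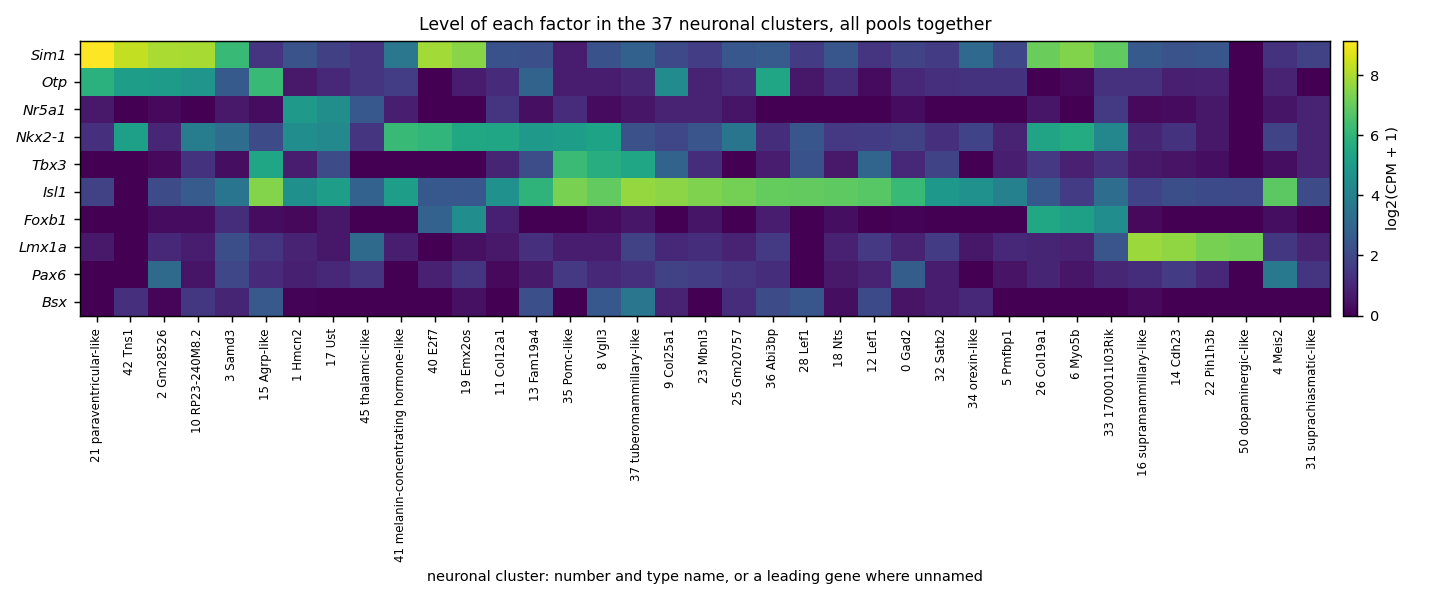
Level of each factor (rows) in each of the 37 neuronal clusters (columns, ordered by the factor that is relatively highest there), all pools together, coloured by log2(CPM + 1). Sim1 and Isl1 occupy largely separate sets of clusters, Lmx1a fills 4 neighbouring columns toward the right, and Pax6 and Bsx stay at low levels in every cluster.

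The genes whose level followed a factor most closely over the 37 clusters were listed among 11303 genes by Pearson's r of log2(CPM + 1). The clusters share libraries and depth, so r is a description. Lmx1b, its close paralog, followed Lmx1a (r = 0.93), and Nr4a2, a nuclear receptor of dopamine neurons, came next (r = 0.80). Tbx3 was followed by Tbx3os1 (r = 0.93), an antisense gene that overlaps it; how strand was used in counting is not given in the sources used here, so the pair is uncertain. Isl1 was followed by Gpc4 (r = 0.84) and by Gad1 (r = 0.79), which makes GABA. Foxb1 was followed by Mypn (r = 0.85), Sim1 by Nxph4 (r = 0.76) and Uncx (r = 0.70), Otp by Sst (r = 0.71), Nkx2-1 by the homeobox gene Lhx5 (r = 0.70), Nr5a1 by Camkv (r = 0.68), Bsx by Nim1k (r = 0.68) and Pax6 by Piezo2 (r = 0.59).

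Which factors meet in a nucleus was asked by counting nuclei with UMIs of both members of a pair, against the number expected from their shares within 10 depth classes of the pool. Of the 45 pairs, 5 stood at 2 or more times the expected number in each pool, and 19 stood at 0.5 or less in each pool. Sim1 and Otp met in 201 chow nuclei where 78.7 were expected (ratio 2.56, 2.21 to 2.93), in 240 DIO nuclei (2.91, 2.56 to 3.31) and in 95 OB nuclei (2.49, 2.01 to 3.04). Of all Otp nuclei, 46.3% in chow, 55.0% in DIO and 34.8% in OB held Sim1, while 12.2%, 13.3% and 9.14% of Sim1 nuclei held Otp. The overlap was thus a large share of the Otp neurons and a small share of the Sim1 neurons.

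Tbx3 and Isl1 met in 122 chow, 149 DIO and 59 OB nuclei, at 2.78, 2.86 and 2.36 times the expected number. Isl1 was in 57.5% of chow, 56.7% of DIO and 36.2% of OB Tbx3 nuclei, against 19.9%, 19.1% and 14.8% of all neurons. Foxb1 nuclei held Sim1 in 47.3%, 41.0% and 47.4% of cases, at ratios of 2.74, 2.37 and 3.58. Foxb1 also met Nkx2-1 at ratios of 3.33 in chow (50 nuclei), 2.53 in DIO (22) and 2.02 in OB, where the 7 nuclei allow 0.81 to 4.15. Tbx3 and Bsx had the highest ratio over the pools together, 4.54, from 15 nuclei. Isl1 and Bsx just missed the limit, at 2.37, 1.99 and 2.34. Thinned to 2000 UMIs, 2 pairs reached a ratio of 2 in each pool, Sim1 with Otp and Nkx2-1 with Foxb1, and with at least 2 UMIs of each factor 2 did, Sim1 with Otp and Tbx3 with Isl1.

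Most pairs met less often than expected: 30 of the 45 stood under 1 in each pool. Sim1 and Isl1, the 2 factors found in the most neurons, met in 126 nuclei where 856 were expected (ratio 0.15). By pool the ratio was 0.18 (0.14 to 0.23) for chow, 0.14 (0.10 to 0.18) for DIO and 0.10 (0.06 to 0.17) for OB. Otp and Foxb1 met in 1 nucleus where 17.0 were expected. Tbx3 and Foxb1 met in 0 where 9.22 were expected, and a count of 0 allows up to 3 nuclei. Foxb1 and Pax6, Nr5a1 and Bsx, and Pax6 and Bsx also had 0 nuclei, with 4.14, 2.79 and 1.33 expected, so that fewer nuclei than expected were not detectable at this depth for the last 2 pairs. Lmx1a stood at 0.37 or less with each of the other 9 factors over the pools together. With Pax6 and Bsx this rests on 6 and 3 nuclei and did not hold in each pool. Lmx1a and Pax6 met in 5 DIO nuclei where 5.07 were expected, and Lmx1a and Bsx in 3 chow nuclei where 3.03 were. The grid of ratios sets all 45 pairs side by side.

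**Figure D2:**
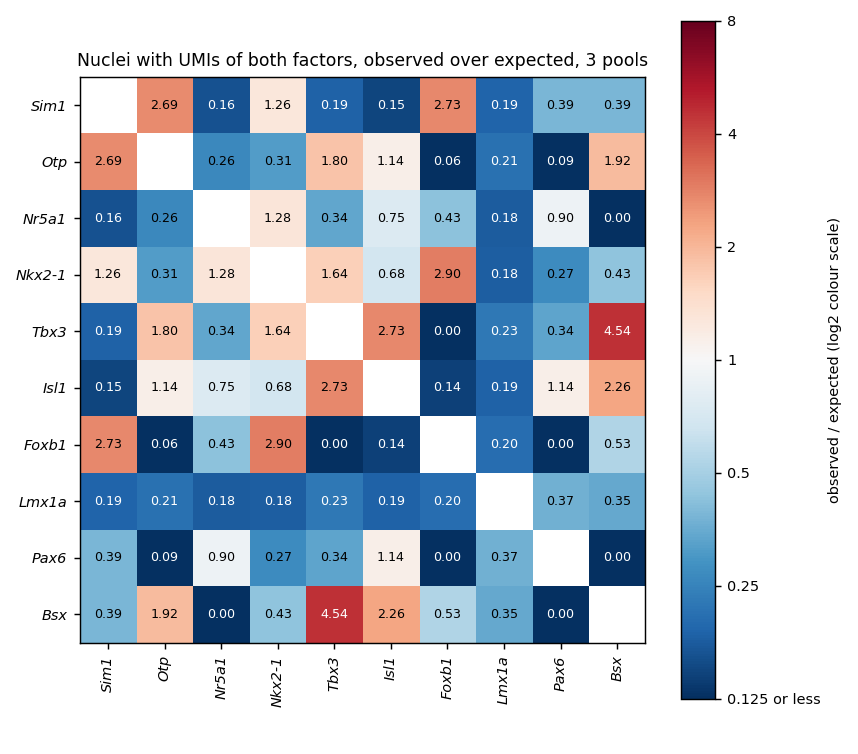
Nuclei with UMIs of both factors, observed over expected within depth classes, with the 3 pools added together; red cells are above 1 and blue cells below, on a log2 colour scale. Sim1 with Otp (2.69), Sim1 with Foxb1 (2.73), Nkx2-1 with Foxb1 (2.90), Tbx3 with Isl1 (2.73) and Tbx3 with Bsx (4.54) stand out in red.

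Transmitter class was read from 6 genes. Nuclei counted as glutamatergic only when they held UMIs of the vesicular glutamate transporters Slc17a6, Slc17a7 or Slc17a8 and none of the GABAergic genes Slc32a1, Gad1 and Gad2, and as GABAergic only in the opposite case. For 5 factors, Sim1, Nr5a1, Nkx2-1, Foxb1 and Lmx1a, glutamatergic-only nuclei outnumbered GABAergic-only nuclei in each pool. Among Sim1 nuclei the shares were 46.9% against 7.08% in chow, 46.9% against 6.16% in DIO and 35.2% against 6.16% in OB. Foxb1 nuclei were 60.3%, 45.8% and 44.7% glutamatergic only, and Nr5a1 nuclei 54.2%, 51.7% and 47.9%. Over all neurons the order was the other way, with 27.5% glutamatergic only and 36.0% GABAergic only in chow.

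Isl1, Tbx3 and Bsx nuclei were more often GABAergic only in each pool. Isl1 nuclei were 62.2%, 62.6% and 51.8% GABAergic only, against 9.66%, 9.74% and 6.42% glutamatergic only. Tbx3 nuclei were 52.8%, 53.6% and 49.1% GABAergic only. Pax6 nuclei were 61.8% GABAergic only and 11.1% glutamatergic only in chow. In DIO the shares were 35.2% (24.2 to 47.5) and 28.2% (18.1 to 40.1) of 71 nuclei, and in OB 22.4% (11.8 to 36.6) and 10.2% (3.40 to 22.2) of 49 nuclei, with overlapping intervals in both. Thinned to 2000 UMIs, both OB shares were 11.5%. Otp nuclei were mixed: 29.0% glutamatergic only and 29.3% GABAergic only for chow, 31.4% and 26.1% for DIO, and 17.2% and 34.8% for OB. Between 20.1% and 63.3% of a factor's nuclei held no UMI of the 6 genes. The split rests on Gad1 and Gad2, so GABAergic only names the genes detected and not a transmitter that was measured. In the tuberomammillary-like cluster, highest in Bsx, Gad1 stood at 261 CPM, Gad2 at 15.2 and Slc32a1 at 2.86. Slc17a6 stood at 50.4 CPM and Slc32a1 at 0 in the Pomc-like cluster, and at 86.2 and 7.37 in the Vgll3 cluster, the leading clusters of Tbx3. The Agrp-like cluster had the other order, 7.28 and 21.6 CPM. With Slc17a6 set against Slc32a1 alone, glutamatergic-only nuclei were more numerous for all 10 factors, with Slc32a1 at 9.05 to 11.7 CPM over all neurons and Slc17a6 at 74.6 to 83.4 CPM.

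**Figure D3:**
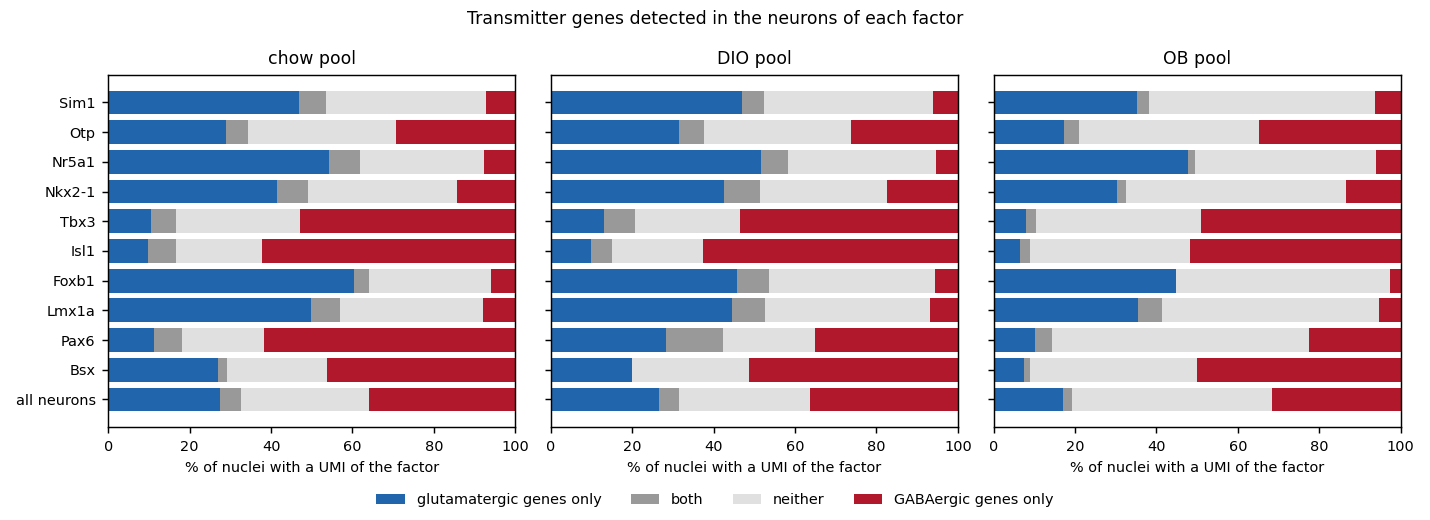
Share of nuclei with a UMI of each factor (rows, with all neurons at the bottom) that held only glutamatergic genes (blue), both kinds (grey), neither (light grey) or only GABAergic genes (red), by pool. Blue leads for Sim1, Nr5a1, Nkx2-1, Foxb1 and Lmx1a, and red for Tbx3, Isl1 and Bsx, in all 3 pools. The lead of red is beyond the counting intervals for Pax6 in chow alone and for Bsx in OB alone.

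Among 35 peptide genes listed and present in the files, 2 were at least 4-fold higher in the nuclei of a factor than in other neurons of the same pool in all 3 pools, with 5 CPM added to both sides. These were Avp and Oxt in Sim1 nuclei. Avp stood at 99 against 9.17 CPM in chow, 78.8 against 6.55 in DIO and 279 against 27.9 in OB, or 7.34-, 7.26- and 8.64-fold. Oxt stood at 49.3 against 4.80 CPM, 32.6 against 3.11 and 76.5 against 8.33, or 5.54-, 4.64- and 6.11-fold. A minority of Sim1 nuclei carried them: Avp UMIs were in 10.5%, 12.7% and 18.1% of these nuclei and Oxt UMIs in 5.15%, 5.16% and 5.10%.

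The next pairs were chosen after their values were seen. In Otp nuclei, Avp was 6.69-, 3.67- and 5.53-fold and Oxt 4.28-, 3.70- and 3.05-fold higher in chow, DIO and OB. Npy, the peptide of Agrp neurons, was 12.6 CPM in Otp nuclei against 1.97 CPM in other neurons of chow mice, 4.44 against 0.703 CPM in DIO mice, from 14 UMIs, and 49.6 against 9.50 CPM in OB mice. Its fold ranged from 1.66 to 3.77. Pomc, the precursor of melanocortin peptides that curb feeding, was 10.2-fold higher in chow and 8.01-fold in DIO Tbx3 nuclei. In OB it was 1.53-fold, with 78.3 CPM in Tbx3 nuclei and 49.3 CPM in the other neurons, against 12.3 CPM in the other neurons of chow. Pmch, the precursor of melanin-concentrating hormone, was 5.60-, 5.21- and 1.62-fold higher in Nkx2-1 nuclei. Tac1, a tachykinin precursor, was 2.61- to 2.99-fold higher in Lmx1a nuclei. Hdc was at 523 CPM in the 41 Bsx nuclei of chow, against 18 CPM in the other neurons, and at 406 and 244 CPM in those of DIO and OB.

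No receptor among the 10 listed reached 4-fold in all pools. Lepr, the leptin receptor, was 2.37-, 1.85- and 3.43-fold higher in Tbx3 nuclei than in other neurons (62.6 against 23.6 CPM in chow, 62.9 against 31.7 in DIO, 112 against 29.3 in OB). It was 1.78-, 1.96- and 2.15-fold higher in Isl1 nuclei. Esr1, the estrogen receptor alpha gene, was 2.24-, 2.72- and 2.02-fold higher in Tbx3 nuclei.

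The question of the series was put to the factors by comparing rapamycin with vehicle. Sim1 was lower with rapamycin in each pool. In chow neurons it stood at 57.3 CPM (54.6 to 60.1) with rapamycin and 64.3 CPM (61.6 to 67.2) with vehicle. The DIO groups stood at 60.3 (57.7 to 63.0) and 78.4 CPM (75.3 to 81.7), and the OB groups at 59.1 (55.4 to 63.0) and 82.2 CPM (75.0 to 89.9). The 3 rapamycin groups thus lay between 57.3 and 60.3 CPM, below all 3 vehicle groups. With the pools taken as replicates of 1 shared effect, Sim1 fell by 0.33 on the log2 scale (SE 0.059), lower in 3 of 3 pools, with an adjusted p of 4.952e-05 in edgeR's quasi-likelihood test with Benjamini-Hochberg adjustment. It was the only 1 of the 10 factors called, while 0.393% of the 17324 genes tested were called. The call was lost with DESeq2 (adjusted p = 0.9999), without the block for the pool (edgeR adjusted p = 1) and without the OB pool (edgeR adjusted p = 0.2215), and the direction held in each of these fits.

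The share of some Sim1 neurons differed between the treatments. The 10 clusters with Sim1 in more than 10% of nuclei made 31.1% of rapamycin and 31.3% of vehicle neurons for chow, 29.1% and 30.3% for DIO, and 23.9% and 31.3% for OB, so their sum was lower with rapamycin mainly in OB. The OB shares cover called neurons alone and leave out 2594 neurons without a call, so they may depend on the hashtag rule. By the ratio of the tags, the OB log2 ratio of Sim1 was -0.36. The paraventricular-like cluster made 1.09% of rapamycin and 1.67% of vehicle neurons for chow, 1.71% and 3.59% for DIO, and 1.59% and 4.36% for OB. Inside that cluster, Sim1 stood at 545 against 631 CPM in chow, 505 against 530 in DIO and 619 against 608 in OB. With each cluster given the same weight in both treatments, the log2 ratios of -0.17, -0.38 and -0.47 became -0.05, -0.13 and 0.10. Within these 10 clusters as a whole, the chow log2 ratio was -0.16 (-0.26 to -0.06), the DIO ratio -0.29 (-0.38 to -0.20) and the OB ratio -0.08 (-0.24 to 0.09). The part of these shares in the Sim1 result was not tested.

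Pax6 differed most from pool to pool. In chow it stood at 5.48 CPM (4.67 to 6.38) with rapamycin and 2.22 (1.73 to 2.80) with vehicle, from 164 and 70 UMIs. In DIO the order was turned, with 1.15 CPM (0.816 to 1.57) and 2.22 (1.71 to 2.83), a log2 ratio of -0.95 (-1.56 to -0.36). In OB the groups overlapped at 1.67 (1.10 to 2.43) and 1.72 CPM (0.823 to 3.15). The chow rapamycin group was thus the high one of 6, and the other 5 lay between 1.15 and 2.22 CPM.

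Pax6 was higher in the chow rapamycin group in all 3 of its leading clusters. These clusters were ranked by Pax6 level over all pools together. The chow rapamycin group gave 54 of 85 Pax6 UMIs in the Meis2 cluster and 39 of 71 in the Gad2 cluster. The ranking thus in part set a higher level of that group there. Pax6 was at 27.9 against 9.29 CPM in the Meis2 cluster and 16.8 against 6.16 in the Gad2 cluster. In the Gm28526 cluster it was 14.1 against 9.88, from 32 and 23 UMIs. In the other 34 neuronal clusters it was 1.67 against 0.640 CPM. The Meis2 cluster made 6.90% of rapamycin and 5.18% of vehicle neurons, and equal cluster weights left a log2 ratio of 1.20. Pax6 UMIs were in 97 rapamycin and 46 vehicle nuclei, with at most 6 and 4 UMIs in any of them. The 5 astrocyte markers, of which none was at 0, summed to 3.88 CPM in the rapamycin and 4.05 CPM in the vehicle neurons of chow. An astrocyte marker UMI was in 4 of 97 Pax6 nuclei (4.12%) with rapamycin and 0 of 46 with vehicle, against 2.46% and 2.48% of all neurons. The list of 6 prethalamic GABAergic markers, none at 0, summed to 100.3 CPM with rapamycin and 91.4 CPM with vehicle in chow, and to 63.4 and 69.5 CPM in DIO.

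Thalamic markers, too, were higher in the group with the higher Pax6 in both chow and DIO. The 6 of them summed to 45.3 CPM with rapamycin and 37.9 CPM with vehicle in chow, with none at 0, and to 37.7 and 57.4 CPM in DIO, with 1 at 0. In OB, where the Pax6 levels overlapped, they summed to 49.2 and 56.9 CPM, with 1 at 0. Chow rapamycin, the group highest in Pax6, was thus not the highest in these markers. The thalamic-like cluster held 38 rapamycin and 13 vehicle nuclei in chow, and 0 and 20 in DIO. That cluster held 1 Pax6 UMI over all pools together. The part of these markers in the Pax6 result was not tested.

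Foxb1 was lowest in the DIO vehicle group: 1.57 CPM (1.15 to 2.09), against 3.47 (2.87 to 4.16) with rapamycin in DIO and 2.60 to 3.86 CPM in the chow and OB groups. The intervals of the OB groups, 1.87 to 3.51 with rapamycin and 1.96 to 5.09 with vehicle, overlap that of DIO vehicle. The DIO log2 ratio was 1.15 (0.64 to 1.67), and 0.73 with equal cluster weights. In its Myo5b cluster it stood at 45.7 against 18.8 CPM. The order was turned in the cluster led by Emx2os and Dkk2, which held 13.6% of its UMIs. There Foxb1 stood at 13.9 against 29.6 CPM, from 10 UMIs each. Its 3 leading clusters made 7.92% of rapamycin and 6.47% of vehicle neurons in DIO, and within them the log2 ratio was 1.18 (0.59 to 1.81). The part of these shares in the result was not tested. Nkx2-1 showed the same group as lowest, with 9.55 CPM (8.47 to 10.7) against 12.5 to 14.8 CPM in the other 5 groups. Its DIO log2 ratio was 0.50 (0.28 to 0.72), just under the limit of 0.5 before rounding.

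Lmx1a was higher with rapamycin in chow, 22.4 (20.7 to 24.1) against 17.3 CPM (15.9 to 18.8), and lower in DIO, 19.1 (17.6 to 20.6) against 21.7 (20.01 to 23.4). With equal cluster weights these log2 ratios of 0.37 and -0.18 became 0.11 and -0.01. The 4 Lmx1a clusters made 10.0% of rapamycin and 7.92% of vehicle neurons in chow, and 8.34% and 9.23% in DIO. Isl1 stood at 52.4 against 44.5 CPM in DIO (log2 ratio 0.24, 0.13 to 0.34), and its intervals held 0 in chow and OB. Tbx3 was at 4.36 against 5.70 CPM in DIO (-0.39, -0.72 to -0.06), a log2 ratio of -0.14 with equal cluster weights, and of -0.34 (-0.70 to 0.03) within its 4 clusters. For Otp, Nr5a1 and Bsx the interval held 0 in each pool.

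Past a log2 ratio of 0.5 in either direction stood 1 of 9 measured factors in chow (Pax6), 2 of 9 in DIO (Foxb1 and Pax6) and 0 of 9 in OB. Bsx, under 50 UMIs in chow and DIO, was not measured there, and Pax6, with 37 UMIs, was not in OB. Over all genes measured, 2.67% passed in chow, 4.58% in DIO and 6.22% in OB. The plot of rapamycin ratios gives each factor with its interval.

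**Figure D4:**
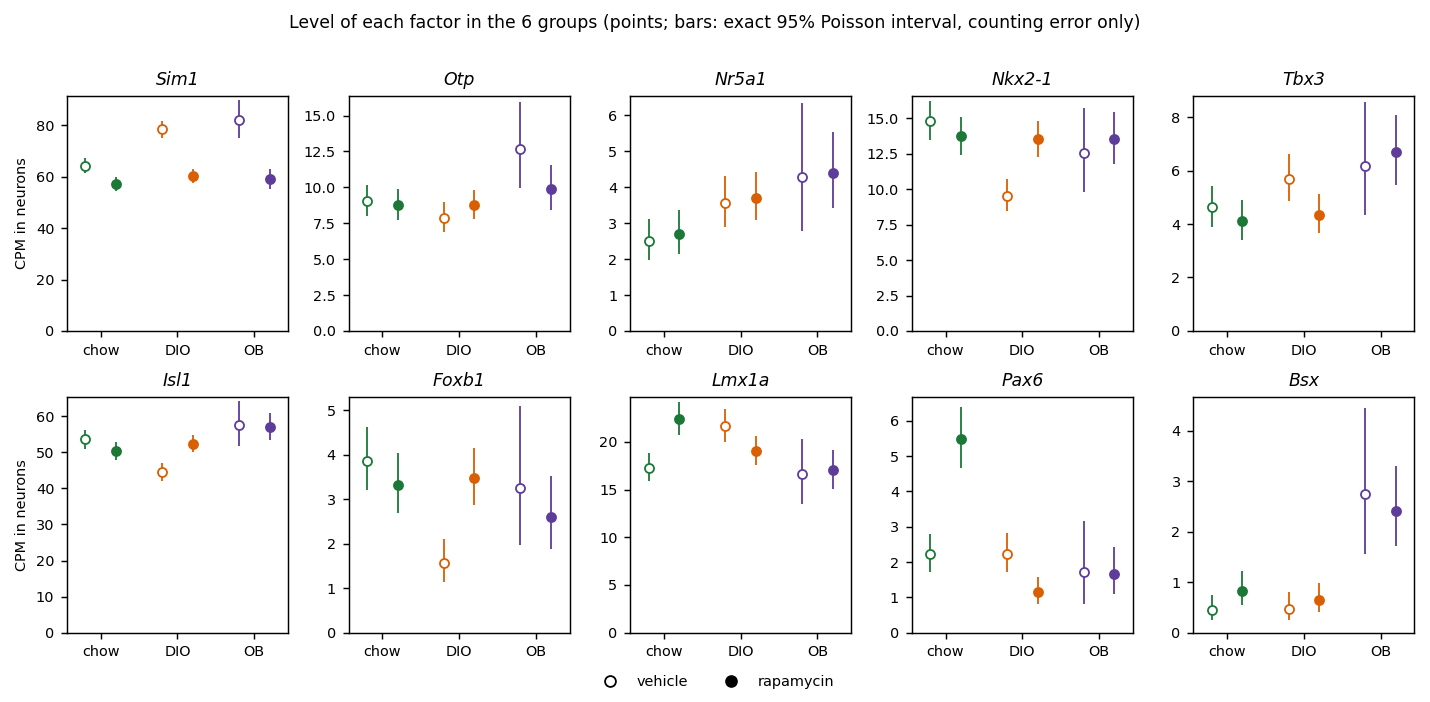
Level of each factor in CPM summed over neurons in the 6 groups (open points vehicle, filled points rapamycin; bars are exact 95% Poisson intervals for counting error, with 1 sample a group). Sim1 with rapamycin lies at 57.3 to 60.3 CPM in all pools, Pax6 is high in the chow rapamycin group alone, and Bsx is high in both OB groups.

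**Figure D5:**
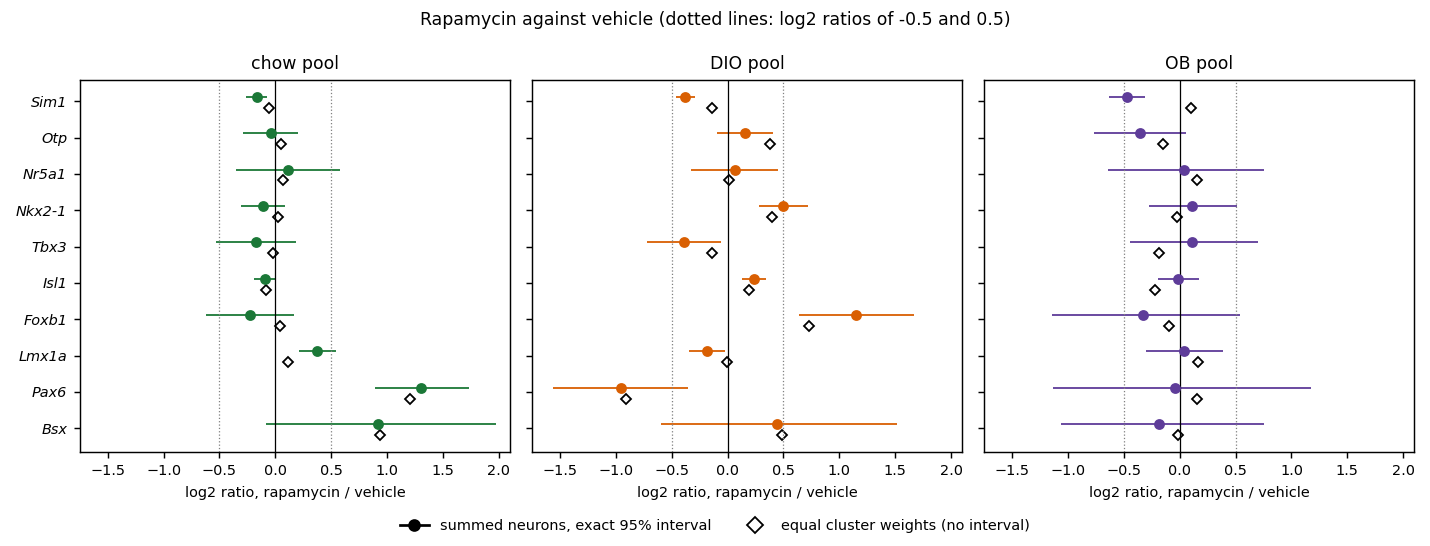
Log2 ratio of rapamycin to vehicle for each factor in each pool (filled points, with exact 95% intervals for counting error), beside the ratio with equal cluster weights (open diamonds, no interval). Sim1 is below 0 in all pools and its diamonds lie nearer to 0, while the Pax6 diamonds stay close to its points in chow and DIO.

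Vehicle neurons of DIO and OB mice were set against those of chow mice. Both comparisons share the chow vehicle group, and pool, library and diet or genotype cannot be told apart in them. For OB this holds for the Cell Ranger version too, since the header of the OB matrix names a later version than those of the chow and DIO matrices. In DIO, 3 of 9 measured factors passed a log2 ratio of 0.5: Foxb1 (-1.30, -1.82 to -0.80), Nkx2-1 (-0.63, -0.85 to -0.42) and Nr5a1 (0.50, 0.07 to 0.95). Of all genes, 20.6% passed. Nr5a1 did not pass with equal cluster weights (0.42), without the highest Scrublet scores (0.44) or between rapamycin nuclei (0.45), and Foxb1 stood at -0.75 with equal cluster weights. Between the rapamycin groups of the same pools, Foxb1 stood at 3.47 CPM in DIO and 3.31 in chow, and Nkx2-1 at 13.5 and 13.7, so neither difference was seen there. The DIO vehicle group, where both were low, also serves in the rapamycin comparison of DIO. Sim1 was higher in DIO vehicle neurons (0.29, 0.20 to 0.37), but at 0.09 with equal cluster weights and 0.07 between rapamycin nuclei. Isl1 was lower (-0.27, -0.37 to -0.16), and at 0.06 between rapamycin nuclei its sign turned.

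In OB, 1 of 9 measured factors passed, Nr5a1, with 25 and 79 UMIs (0.78, 0.07 to 1.44), while 19.2% of all genes did. Of these 25 UMIs, 3 came from 1 nucleus, the only OB vehicle nucleus of the thalamic-like cluster. In its main cluster, led by Hmcn2, Nr5a1 stood at 28.8 against 21.8 CPM, from 18 and 53 UMIs. Bsx fell short of the 50 UMIs but stood apart: 16 UMIs or 2.74 CPM (1.57 to 4.46) in OB vehicle against 14 UMIs or 0.443 CPM (0.242 to 0.744) in chow vehicle. The OB rapamycin group was as high, at 2.41 CPM (1.72 to 3.30), and the 4 chow and DIO groups lay between 0.443 and 0.835 CPM. Bsx was in 0.788% of all OB neurons, 0.422% of chow and 0.341% of DIO neurons, and thinned to 2000 UMIs in 0.442%, 0.124% and 0.108%. Among OB oligodendrocytes, 1 of 239 nuclei held a Bsx UMI, a share of 0.418%. Among OB astrocytes it was 0 of 1065, which allows a share of up to 0.282%. The pituitary-like cluster of 219 nuclei held 0 Bsx UMIs, but its 171 OB nuclei are too few to tell a share of 0.788% from 0. Markers of these cells were higher in the OB neuronal sums: the 5 astrocyte markers summed to 8.66 and 15.3 CPM with rapamycin and vehicle, against 3.88 to 4.24 CPM in the chow and DIO groups. The 6 pituitary markers summed to 12.2 and 28.5 CPM, against 1.54 to 7.56 CPM. Sim1 (0.35, 0.21 to 0.50) and Otp (0.49, 0.10 to 0.86) were higher in OB vehicle neurons, and with equal cluster weights these ratios were 0.09 and 0.12.

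Other developmental transcription factors of the hypothalamus and its neighbours were read from a list of 53 found in the files. With rapamycin, 4 of 44 measured passed upward and 1 downward in chow (median log2 ratio -0.03, all genes -0.03). In DIO, 3 of 42 passed upward and 3 downward (median 0.00, all genes 0.04), and in OB 9 of 33 upward and 2 downward (median 0.26, all genes 0.04). Over all genes measured, 1.05% passed upward and 1.61% downward in chow. The shares were 2.82% and 1.75% in DIO, and 3.72% and 2.50% in OB. Nkx2-4, a close relative of Nkx2-1, was at 1.13 (0.50 to 1.79) in DIO and Sim2, the paralog of Sim1, at -0.76 (-1.22 to -0.30). Uncx, which followed Sim1 over clusters, was at -0.84 (-1.19 to -0.48) in OB. In vehicle neurons of DIO against chow, 4 of 44 passed upward and 15 downward (median -0.17), among them Hmx3 at -1.64, Nkx2-4 at -1.27 and Six6 at -0.89. In OB against chow, 2 of 41 passed upward and 10 downward, with Lhx1 at -0.98 and Dlx2 at -0.88. Over all genes, 8.45% passed upward and 12.1% downward in DIO against chow, and 9.42% and 9.82% in OB against chow. Across the 3 pools edgeR called 0 of the 48 tested, with 11 at an unadjusted p under 0.05 and 0 called by DESeq2. Of all 17324 genes, 993 (5.73%) had an unadjusted p under 0.05 in edgeR. The lowest adjusted p, from edgeR with Benjamini-Hochberg adjustment, was 0.05648 for Rorb.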

How the data were processed

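Single-nucleus RNA was measured in 3 pools, each with 2 hashtags. The authors deposited, for each pool, raw UMI counts per gene and barcode and counts per hashtag; per the submitters' processing notes they used Cell Ranger 6.0.0 and the mouse build mm10. The chow and DIO matrices name the same Cell Ranger version and the OB matrix a later one, per the file headers, and whether intronic reads were counted is not given in the sources used here. The count matrices list 27998, 27998 and 31053 genes. The members and gene lists were chosen with earlier results of these data known.

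Nuclei with at least 500 UMIs, 300 genes and at most 5% mitochondrial counts were kept. Hashtags were called with Seurat 5.3.0 (HTODemux, quantile 0.99), and hashtag doublets (542, 450 and 622 nuclei) were removed. Scrublet's own threshold marked 0, 0 and 1 nuclei, so it did not work. Nuclei were clustered with scanpy 1.11.5 and leidenalg 0.10.2 (3000 variable genes, 40 components, 20 neighbours, resolution 1). A cluster was called X-like when at least 3 listed markers were 3-fold higher than in the other nuclei and found in 10% of its nuclei; 11 of 37 neuronal clusters met this. A rule to set aside pituitary-like clusters by Tbx19 and Pitx1 was added after the data were seen. The Vgll3 cluster met the kisspeptin rule only by Tacr3, Esr1 and Prlr and is called by its leading genes.

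Counts were summed over neurons of each hashtag and scaled to equal library totals (CPM). Within and between pools there is 1 sample a group, so ratios carry an exact Clopper-Pearson 95% interval and no test. A gene was measured with at least 50 UMIs in the 2 groups together, and 0.5 on the log2 scale was the limit for counting. Across pools edgeR 4.0.16 (quasi-likelihood, pool as block, TMM factors, Benjamini-Hochberg adjusted p of at most 0.05) was used, with DESeq2 1.42.0 as an alternative, and both the edgeR step and the interval step were tested on simulated data. Equal cluster weights, thinning to 2000 UMIs, other UMI limits, another hashtag rule and leaving out a pool were also tried. All 10 factors are named, whatever their values; a peptide is named for a factor when it is at least 4-fold higher in each pool, with 5 CPM added and at least 10 UMIs. Of the other transcription factors, the 3 highest and 3 lowest ratios could be named, and for likeness over clusters the 3 closest genes. No replicates say whether hashtags hold separate mice, so p-values do not measure the spread between mice. They rest on the spread between these pools and on dispersion that edgeR shares over all genes. The SE is the size of the log2 ratio over the square root of edgeR's F statistic, so it shares this limit.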

Additional observations from a re-analysis of the deposited data

Results flagged for a closer look

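The rapamycin log2 ratio of Pax6 was 1.31 in chow and -0.95 in DIO neurons, a gap of 2.26, with counting intervals that lie on opposite sides of 0. Lmx1a, too, had ratios of opposite sign, 0.37 in chow and -0.18 in DIO, a gap of 0.56. Each drew attention because the single ratios of the 2 pools had opposite signs. With 1 sample a group, neither difference was tested.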

How the results depend on the processing

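Of the ratios of single factors, 251 values under the alternatives moved by less than the counting interval, 18 moved by more and 1 reversed: Foxb1 in DIO against chow was 0.0703 between rapamycin nuclei. A reversal was counted only for ratios past 0.5, and sign changes of smaller ratios are among the other values. Such a change was Sim1 with rapamycin in OB, from -0.47 to 0.10 with equal cluster weights. With 20 UMIs per gene, 2 factors passed in chow rapamycin and 2 in OB against chow, where 1 had passed in each; over all genes the share was 6.21% and 23.7% there. Between rapamycin nuclei, 1 factor passed in DIO against chow (3 between vehicle nuclei) and 4 in OB against chow (1 between vehicle nuclei), with 14.3% and 16.4% of all genes. The 1 in DIO was Pax6 (-2.26), which is none of the 3 between vehicle nuclei. The pool served as the replicate block, since each pool gave 1 sample per treatment. With no replicate block edgeR called 0 factors and 0 genes (82 at an unadjusted p under 0.05), and DESeq2 called 0 and 0 (171 unadjusted), against 1 factor and 68 genes with the block. Leaving out a pool gave 0 to 2 factors and 10 to 211 genes: 211 without chow, 10 without DIO, where Pax6 joined Sim1 (log2 ratio 1.11, edgeR adjusted p = 0.02558), and 16 without OB. The other hashtag rule gave 30 genes. Pairs met at 2 times the expected number in 2 cases with 2 UMIs of each factor and in 2 cases after thinning, and 1 pair reached a ratio of 3. With Slc17a6 against Slc32a1 alone, 10 factors were glutamatergic instead of 5. Peptides named fell to 1 after thinning and to 0 at 8-fold. Leaving out nuclei called by Scrublet could not be run; leaving out the 5% with the highest scores, chosen after seeing the data, kept 4 of the 5 pairs. Depth limits Bsx and Pax6 most: Bsx had 30 UMIs in OB and chow vehicle together.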

Other observations

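The Sim1 and Otp overlap was seen under both treatments. The ratio of observed to expected nuclei was 2.71 with rapamycin and 2.39 with vehicle for chow, 2.70 and 3.15 for DIO, and 2.64 and 2.11 for OB, with overlapping counting intervals in each pool. Tbx3 and Isl1 met at 2.67 and 2.88, 2.57 and 3.13, and 2.42 and 1.74 times the expected number. Sim1 and Foxb1 stood at 2.245 to 4.51 over the 6 groups. Nkx2-1 and Foxb1 stood at 1.02 (0.12 to 3.68, 2 nuclei) with rapamycin in OB. Tbx3 and Bsx stood at 1.28 in OB and 1.88 in DIO with rapamycin, from 1 nucleus each. In all other groups these last pairs stood at 2.03 or more.

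Hdc, which makes histamine, is on neither the peptide nor the receptor list. It is among the markers that named the tuberomammillary-like cluster, where Isl1 and Bsx were highest, so its level in their nuclei is not a separate observation. Hdc was also high in Tbx3 nuclei, at 266 CPM against 14.4 CPM in other neurons of chow. It stood at 302 against 21.0 CPM in DIO and 170 against 14.0 CPM in OB. In Isl1 nuclei it stood at 76.5, 108 and 62.7 CPM, against 5.57, 8.75 and 8.28 CPM. In Otp nuclei it was lower than in other neurons, at 1.94 against 21.4 CPM in chow, 11.4 against 30.0 CPM in DIO and 12.4 against 17.4 CPM in OB. The share of OB nuclei with an Hdc UMI was 1.47% of Otp nuclei and 1.32% of the others.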
